A study of Mus musculus with 2 samples.

Results

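Intermediate 2C-like cells were defined here as cells of the MERVL-GFP positive library with an intermediate load of transcripts typical of the 2-cell embryo. A cell entered when it had at least 10000 UMIs (counted molecules), when at least 0.05% and under 0.2% of its UMIs came from a set of 28 features, and when under 0.03% came from the primitive endoderm genes Gata6, Sox17, Pdgfra and Dab2. The 28 features, called rule genes below, were Zscan4a to Zscan4f, Sp110, Zfp352, Tmem92, AF067061 and all genes whose symbols start with Usp17l, Tdpoz or Tcstv, and their percentage is called the two-cell share. The rule found 715 cells among the 4403 positive-library cells with enough UMIs, or 16.2% (95% exact binomial interval 15.2 to 17.4), and among 8435 cells in both libraries. It removed 110 of 825 cells in the range of two-cell share (13.3%) for their endoderm transcripts. Of 3824 negative-library cells with enough UMIs, 3 met the same limits and were not counted as members.

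The study used mESC, mouse embryonic stem cells, which are pluripotent and renew themselves in culture. The line has a MERVL::GFP reporter, in which the promoter of an endogenous retrovirus drives GFP, and H2B-mIFP, a far-red histone label by which cells are tracked. All cells of both libraries came from this line, with no treatment named in the labels. One library was deposited for cells labelled MERVL-GFP positive (4603 cells) and 1 for cells labelled MERVL-GFP negative (3832 cells), each its own batch in the labels, so batch and reporter group cannot be told apart. How the reporter separated the cells is not stated, and neither is whether the line is 1 clone.

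The 2C-like state is a rare, reversible state of embryonic stem cells in which transcripts of the 2-cell embryo appear. The transcription factor Dux opens and activates MERVL elements and nearby genes, among them the Zscan4 family, which codes for zinc finger proteins known for a part in telomere maintenance. Pluripotency factors are known to be low in the fully established state. A cell with an intermediate two-cell share may be entering the state, leaving it or holding a partial form of it, and single time-point counts do not separate these.

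The other classes of positive-library cells, under the same limits on UMIs and endoderm transcripts, gave the reference levels. Off cells (1237) had a two-cell share under 0.01%, bridge cells (1385) had 0.01% to under 0.05%, and strong cells (558) had at least 0.2%. UMIs were summed per class and expressed as CPM (counts scaled to the same total of UMIs in each class). The classes hold 42423440, 45741608 and 11790172 UMIs, and the intermediate cells hold 20727670. Because the classes come from 1 library and were chosen by a readout, no test was possible and no replicate error exists. Intervals are exact 95% intervals and cover counting error only.

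The rule left a continuous population, without a gap at its edges. The cells nearest to the lower limit had two-cell shares of 0.0499% and 0.0503%, with 48 cells within 0.005 points below it and 45 within 0.005 points above. At the upper limit the nearest cells had 0.1997% and 0.2002%, with 19 below and 8 above within the same distance. At the endoderm limit they had 0.0294% and 0.0302%. The median intermediate cell had a share of 0.1001% (quartiles 0.0701 and 0.146), carried by a median of 27 rule-gene UMIs, with a range from 6 to 128. The class is therefore a range of a score and not a cell type with a border. The 3 barcodes that the libraries share did not belong to intermediate cells.

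Depth and cell quality moved with the classes. Median UMIs per cell were 33518 in off, 32057 in bridge, 27687 in intermediate and 19480.5 in strong cells. Over the same order the median mitochondrial share was 2.37%, 2.48%, 2.75% and 3.24%. After each cell was thinned to 10000 UMIs, off, intermediate and strong cells had a median of 3182, 3179 and 3096 detected genes, so genes per molecule differed little between off and intermediate cells. Among cells with at least 20000 UMIs the GFP level of intermediate cells was 0.835 of that of strong cells, against 0.774 with all cells of both classes.

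The label 2C-like was checked against its markers. Zscan4d (ENSMUSG00000090714), a rule gene, had 7.05 CPM in off cells, 31.8 in bridge cells, 191 (185 to 197) in intermediate cells and 787 (771 to 803) in strong cells. Zscan4a had 5.89, 22.8, 107 and 631 CPM in the same order. Off cells of the negative library (3589) had 0.0819 CPM of Zscan4d and 0.0137 CPM of Zscan4a. These levels follow from the rule and describe it only. GFP was not among the rule genes and had 383 CPM (374 to 391) in intermediate cells, 79.1 CPM in off cells of the same library and 0.376 CPM in negative-library off cells. The libraries carry the reporter in their labels, so the GFP difference between them is no independent check.

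Markers of other cell types were measured in the same cells. Of 10 fibroblast markers, which would mark feeder cells, 3 had 0 UMIs in the intermediate cells (Dcn, Lum and Postn), and their summed level was 13.6 CPM in off, 25 in intermediate and 22.6 in strong cells. The 12 trophoblast markers summed to 170, 194 and 172 CPM. The 16 primitive endoderm markers summed to 407, 580 and 612 CPM, and 4 of them were limited by the rule. Of the 10 measured, 3 were higher in strong than in off cells, beside 10.9% of all measured genes: Sox17 (2.92, 8.83 and 11.7 CPM), Lama1 (16.1, 30.9 and 38.7 CPM) and Dab2 (8.39, 14.4 and 19.8 CPM). The list's median log2 difference from off cells was 0.65 in intermediate and 0.74 in strong cells, beside -0.01 and -0.14 over all genes. The part of residual endoderm RNA in the gene levels was not tested.

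Promoter sequences of 4 rule genes and of Gm4340 and Gm21761, which the rule did not use, are shown because they form 3 pairs of near-identical stretches that share a short word. Windows of 59 bases come from RefSeq promoters (GRCm38.p6, 250 bases before to 50 after the start) and are written 5′ to 3′ on the gene's strand. Capitals mark a match to the word GATTNNATC or its reverse complement GATNNAATC, which is a core of spellings of the Dux motif.
Zscan4c, chr7:11005607-11005665, plus strand: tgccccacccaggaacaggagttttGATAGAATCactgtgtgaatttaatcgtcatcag
Zscan4d, chr7:11166239-11166297, minus strand: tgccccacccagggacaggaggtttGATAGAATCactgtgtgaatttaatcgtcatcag
Sp110, chr1:85604054-85604112, minus strand: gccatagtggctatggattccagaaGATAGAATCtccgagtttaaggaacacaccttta
Gm4340, chr10:104193871-104193929, plus strand: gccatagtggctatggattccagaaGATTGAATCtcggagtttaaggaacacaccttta
AF067061, chr13:120262945-120263003, plus strand: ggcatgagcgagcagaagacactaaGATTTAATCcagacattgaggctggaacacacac
Gm21761, chr13:119913560-119913618, minus strand: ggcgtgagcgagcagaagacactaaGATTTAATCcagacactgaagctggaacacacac
The match lies 113, 124, 196, 146, 125 and 125 bases before the annotated start, in the order printed. Of the 59 bases 57 are identical between Zscan4c and Zscan4d, 57 between Sp110 and Gm4340, and 56 between AF067061 and Gm21761.

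Among 27025 RefSeq promoters of the same length, 495 (1.83%) hold GATTNNATC on either strand. Of the rule genes with a promoter 6 of 12 did, among them the copies Zscan4b, Zscan4c, Zscan4d and Zscan4f. Outside the rule it was held by 15 of 149 promoters of higher genes still at least 2-fold short of the strong level in intermediate cells (10.1%), by 8 of 301 of higher genes between (2.66%) and by 1 of 134 of higher genes already within 1.3-fold of it (0.746%). The rule genes and the still-off genes include copies of one another, which share promoter sequence and are not independent. The stricter word GATTNAATC, which lies within the first, was held by 10 of 149, 2 of 301 and 0 of 134 promoters, and by 83 of all (0.307%). Among rule genes it was held by 1 of 12 promoters (8.33%), that of AF067061. GATTNNATC was held by 54 of 5548 promoters of unchanged genes (0.973%).

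Other words were counted in the same promoters. TATAAA was held by 7 of 12 promoters of rule genes (58.3%), by 30 of 149 of still-off genes (20.1%), by 57 of 301 of higher genes between (18.9%), by 20 of 134 of genes at the strong level (14.9%), by 409 of 5548 of unchanged genes (7.37%) and by 4234 of all promoters (15.7%). CACGTG was held by 0 of 12 promoters of rule genes, 9 of 149 of still-off genes (6.04%), 16 of 134 of genes at the strong level (11.9%), 731 of 5548 of unchanged genes (13.2%) and 2187 of all promoters (8.09%). The short words were chosen after 5 longer spellings of the Dux motif had been searched in these promoters, and the longer ones did not give the same contrast. GATTNNATC with a T before and an A after was held by 4 of 12 promoters of rule genes, but by 0 of 149 of still-off genes, 2 of 301 of higher genes between, 0 of 134 of genes at the strong level and 66 of all promoters (0.244%). The others were GATTNAATC and GATTGGATC with the same added bases, AATCNAATC with them, and GATTCAATC with an A after. Each was held by 0 of 149 promoters of still-off genes and by 3 to 11 of all promoters. A match is letters in a window and does not show binding.

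Within the rule genes, the make-up of the two-cell share differed between intermediate and strong cells. The Zscan4 family, the largest part, gave 44.1% of rule-gene UMIs in intermediate cells and 43.7% in strong cells. The Usp17l family, which codes for deubiquitinases, gave 35% (34.4 to 35.6) and 27.4% (27.0 to 27.7). The Tcstv genes gave 3.71% (3.47 to 3.97) and 8.70% (8.47 to 8.93), and AF067061 gave 1.99% and 4.06%. Usp17l genes were thus a larger part of the signal in intermediate cells, and Tcstv genes and AF067061 a smaller part. The classes were cut on the sum of these genes, so a cell rich in 1 of them can pass a limit by it. The make-up describes values that the rule used. Bridge cells had 34.8% from Usp17l, 4.35% from Tcstv and 2.68% from AF067061. Off cells, with few rule-gene UMIs, had 30.6%, 6.47% and 4.05%, nearer to strong cells, so the make-up did not change in 1 direction with the two-cell share.

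Single rule genes stood at unequal distances from the strong level. All 17 rule genes with enough UMIs were at most at 1/2 of it. A gap follows from the limits of the classes, which were cut on the sum of these genes, so these levels describe the rule. Tcstv3 had 38.3 CPM against 423 in strong cells, an 11-fold gap (10.2 to 11.9). It had a UMI in 241 of 715 intermediate cells, and 36 cells held 57.6% of them, a spread between cells that the interval does not cover. AF067061 had 21.3 against 202 CPM, Zscan4a 107 against 631 and Sp110, a nuclear body protein, 88.5 against 468. Usp17la had 163 against 505 CPM, a 3.10-fold gap (2.97 to 3.24). The Zscan4 and Usp17l families share sequence to unequal degrees: 49.6% of the 50-base words of Zscan4d, 90.1% of those of Zscan4b, 19.3% of those of Usp17la and 44.7% of those of Usp17lc also occur in transcripts of other genes. Values of single copies are uncertain to that extent.

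Genes outside the rule were then placed between the off and the strong level. A gene was measured when it had at least 10 CPM in off or strong cells and at least 50 UMIs in both together, which 8441 genes did. Genes at least 2-fold apart between strong and off cells on CPM + 1 were called higher or lower, which gave 924 higher genes (10.9% of those measured) and 628 lower genes (7.44%). Such a gene was at the strong level in intermediate cells when within 1.3-fold of it or past it, still off when at least 2-fold short of it, and otherwise between. The classes were cut on one group of genes, so genes transcribed together with the rule genes follow the cut, and the counts describe these cells only.

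How far genes stood from their strong level in intermediate cells depended on direction and on the scale. Of the 924 higher genes, 184 were already at the strong level (2.18% of all measured genes), 420 lay between (4.98%) and 320 were still off (3.79%). Of the 628 lower genes, 139 were at the strong level (1.65%), 475 lay between (5.63%) and 14 were still off (0.166%). As a position on the linear path from off (0%) to strong (100%), the median higher gene stood at 43.5% (quartiles 31.7 and 59.4) and the median lower gene at 69.8% (quartiles 60.8 and 79.8). The summed rule genes stood at 20.7%, a position that follows largely from the limits of the classes. On the log2 scale the order of the medians turned: intermediate minus off was 1.26 of a strong minus off difference of 1.91 for higher genes, and -0.75 of -1.25 for lower genes.

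The limits are folds, so the size of the changes bears on these counts. Of the 434 genes at least 4-fold higher in strong than in off cells (5.14%), 15 were at the strong level, 133 between and 286 still off. Lower genes had the smaller median log2 difference between strong and off cells. Set directly against off cells, intermediate cells had 598 genes at least 2-fold higher (7.08%) and 170 at least 2-fold lower (2.01%). Set against strong cells they had 323 at least 2-fold lower (3.83%) and 16 at least 2-fold higher (0.19%). The median over all measured genes was -0.14 for strong minus off and -0.01 for intermediate minus off.

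**Figure D1:**
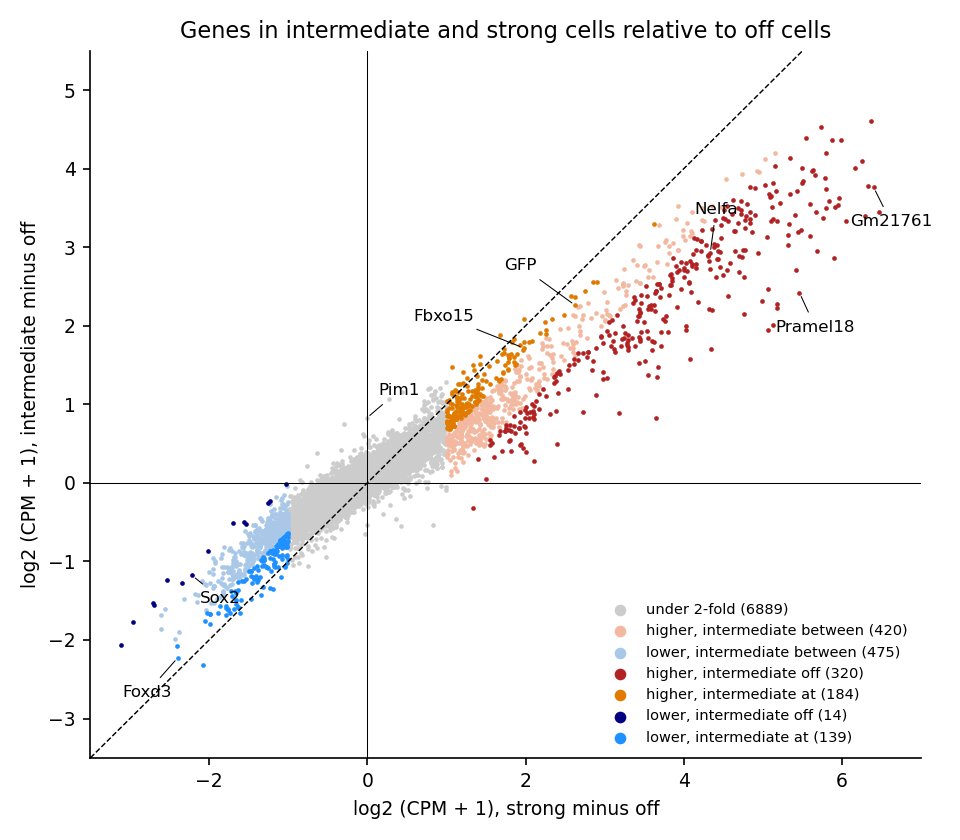
Each point is 1 of 8441 genes outside the rule, with log2 (CPM + 1) in strong minus off cells on the x axis and in intermediate minus off cells on the y axis. On the dashed line intermediate and strong cells are level: the 184 higher genes at the strong level lie along it and the 320 genes still off lie far below it. Of the 628 lower genes on the left, 475 lie between 1.3-fold and 2-fold from it.

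The reporter was among the genes near the strong level. GFP had 79.1 CPM in off cells, 161 in bridge cells, 383 (374 to 391) in intermediate cells and 494 (482 to 507) in strong cells, so the intermediate level was 0.774 of the strong level (0.748 to 0.801). This is close to the 1.3-fold limit, and GFP fell in the same class under 11 of 17 alternative settings. When each cell was thinned to 10000 UMIs, at least 1 GFP UMI was found in 37.3% of off, 84.9% of intermediate and 91.2% of strong cells. Without thinning the counts per cell are higher, and 679 of 715 intermediate cells had a GFP UMI. In negative-library off cells, which had a median of 39094 UMIs before thinning, the thinned share was 0.362%.

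Fbxo15 (ENSMUSG00000034391), an F-box gene of embryonic stem cells, had 413 CPM in off, 710.5 in bridge, 1359 (1343 to 1375) in intermediate and 1631 (1608 to 1654) in strong cells. Its intermediate level was 0.833 of the strong level (0.818 to 0.848), and already 1307 CPM in intermediate cells with a two-cell share under 0.1%. Sox3, a SOXB1 transcription factor, had 8.53, 20.4, 32.1 and 36.6 CPM over the 4 classes. Etv3, an ETS-family repressor, had 10.7, 17.5, 43.1 and 52.2 CPM. In these genes the largest step lay at or below the lower limit of the intermediate range, and strong cells were little higher.

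Arnt, the shared partner of bHLH-PAS transcription factors, had 31.6 CPM in off, 92.0 in intermediate and 119 in strong cells, at 0.773 of the strong level and in the same class under 10 of 17 settings. Pmaip1, a BH3-only gene of the p53 response, had 17.7, 51.8 and 61.2 CPM. Among the 8 genes with the largest strong-to-off difference at the strong level were, besides GFP, 1700003I16Rik (1.04, 19.0 and 24.2 CPM), 1700052K11Rik (10.6, 61.7 and 76.5 CPM), 0610005C13Rik (2.29, 18.3 and 23.5 CPM), Gm43672 (6.77, 39.2 and 45.3 CPM) and the histone H3 gene H3c15 (1.70, 12.9 and 15.6 CPM). Gm13169 and 4930584F24Rik completed them, the former in the same class under 8 of 17 settings. Fbxo15, Sox3, Etv3 and Arnt were picked out after their values were seen.

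Among the genes still off the strong level, 3 with high counts, picked out after their values were seen, are given first. Gm21761 (ENSMUSG00000096175) had 102 CPM in off cells, 195 in bridge cells, 1398 (1382 to 1414) in intermediate cells and 8679.5 (8626 to 8733) in strong cells. The strong level was 6.21 times (6.13 to 6.29) the intermediate level. Gm21818 had 57, 109.5, 660.0 and 3471 CPM, and Eif1ad6, a copy of a translation initiation factor-like gene, had 24.3, 48.4, 222 and 1225 CPM. In CPM most of the difference of both lay above the intermediate range. On the log2 scale most of it lay below, with 3.51 of 5.90 reached in intermediate cells for Gm21818 and 3.14 of 5.6 for Eif1ad6. Of the 50-base words of Gm21761 76.2% occur in other transcripts, and of those of Eif1ad6 94.4%.

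The largest gaps between strong and intermediate cells outside the rule belonged to genes with few UMIs in off cells. Spopfm2 had 1.01 CPM in off, 7.14 in intermediate and 69.4 in strong cells, a 9.72-fold gap (8.15 to 11.7). Gm21731 had 1.82, 9.84 and 92.9 CPM, and Pramel18, of a preferentially expressed antigen in melanoma-like family, had 2.76, 19.1 and 165 CPM. BC147527 had 3.49, 31.7 and 266 CPM, Gm4340 1.67, 28.3 and 235 CPM, Gm5117 1.39, 24.3 and 186 CPM, and the pseudogene Zscan4-ps1 4.05, 23.6 and 182 CPM. The gap of Gm5117 depended on depth: intermediate minus strong was -2.89 on the log2 scale, and -1.63 among cells with at least 20000 UMIs. Within the strong class the levels went on: Pramel18 had 61.4 CPM at a two-cell share of 0.2% to under 0.4% and 262 CPM above. This differs from GFP, with 475 and 513 CPM in the same subclasses.

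**Figure D2:**
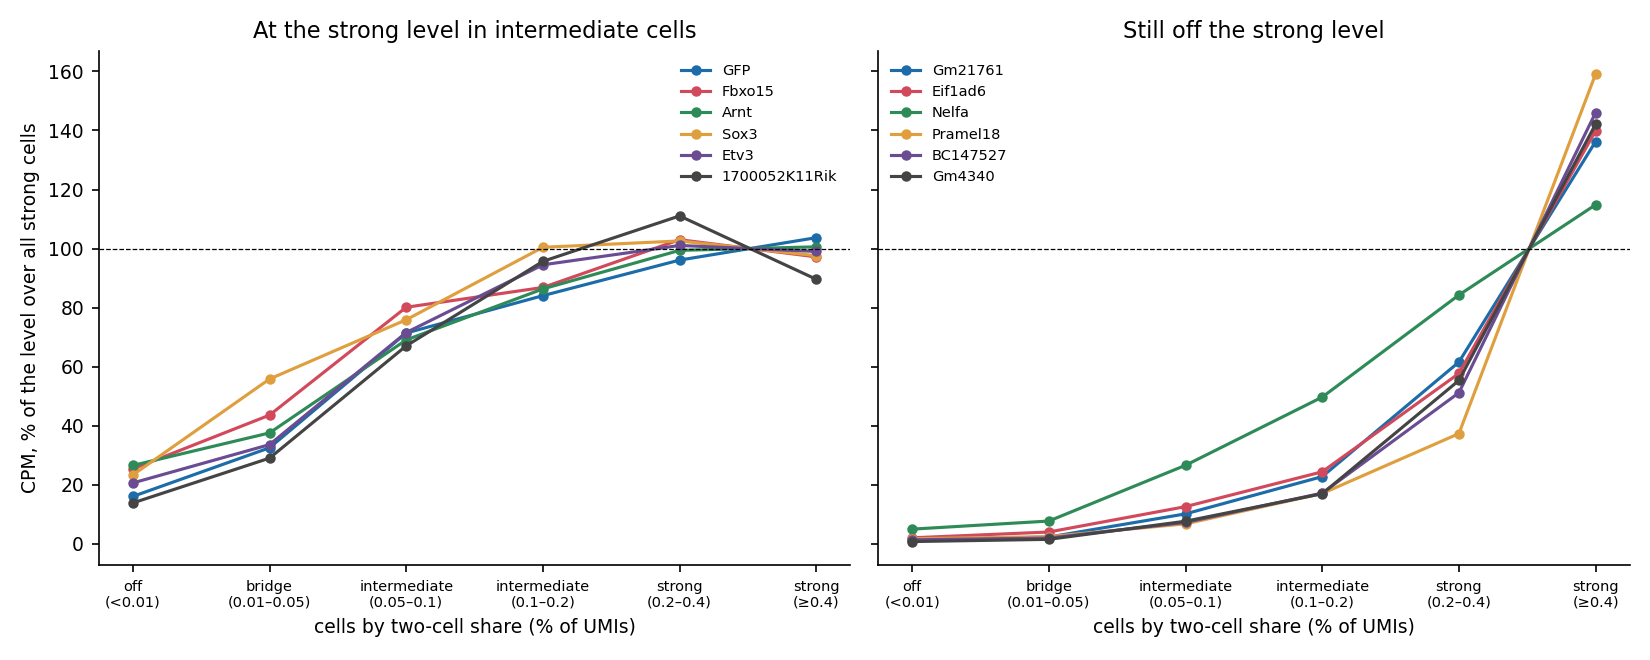
CPM as a percentage of the level over all strong cells (dashed line, 100%) on the y axis, across 6 classes of positive-library cells by two-cell share on the x axis; each line is 1 gene. In the left panel GFP, Fbxo15, Arnt, Sox3, Etv3 and 1700052K11Rik are near their strong level in the upper intermediate cells. In the right panel Gm21761, Eif1ad6, Pramel18, BC147527 and Gm4340 are far below theirs in all classes under the strong cells, Nelfa less so.

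The 2C list, which leaves out the rule genes, holds 52 genes, of which 36 were in the table and 27 were measured. Of these 26 were higher in strong than in off cells, with 21 still off the strong level in intermediate cells, 5 between and 0 at it, beside 34.6%, 45.5% and 19.9% of all higher genes. The list summed to 727 CPM in off, 1557 in bridge, 8184 in intermediate and 34380.2 in strong cells, so intermediate cells had 0.238 of the strong level. The list's genes were known to mark these cells and several were seen to be high in this library earlier, so the direction is no independent evidence. Among the genes between were Fgf1, a growth factor (9.50, 106 and 196 CPM in off, intermediate and strong cells), Dppa3, a maternal factor (30.3, 86.0 and 130.0 CPM), Prnp (8.32, 20.7 and 32.1 CPM) and Pramel7 (6.03, 14.3 and 23.9 CPM). The Dppa3 level rests on few cells: 185 of 715 intermediate cells had a UMI, and 36 of them held 86.9% of its UMIs.

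Of 7 measured activators of the state 3 were higher in strong than in off cells and 2 lower, beside 10.9% and 7.44% of all measured genes. Nelfa, a subunit of the negative elongation factor that can promote the state, had 109 CPM in off, 169 in bridge, 829.7 (817 to 842) in intermediate and 2209.6 (2183 to 2237) in strong cells and was still off, at 0.375 of the strong level. Dppa2, which acts upstream of Dux, had 144, 223, 341 and 461 CPM and lay between. Dppa4, its partner, had 73.1, 64.6 and 62.3 CPM in off, intermediate and strong cells, and Trp53, which codes for p53, had 284, 181 and 124 CPM.

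Dux itself was too low to be measured by these limits. Its copy Duxf3 had 0.495 CPM (21 UMIs) in off cells, 1.75 in bridge, 5.31 (4.36 to 6.4) in intermediate and 9.75 (8.05 to 11.7) in strong cells. Of 24 measured repressors of the state, 23 differed by under 2-fold between strong and off cells, beside 81.6% of all measured genes. The exception was Mga, of a non-canonical Polycomb complex, with 100.5, 54.2 and 38.2 CPM. Trim28 had 725 CPM in off, 902 in intermediate and 862 in strong cells, and Smchd1 87.5, 92.5 and 77.3 CPM. In the DNA methylation list 2 of 11 measured genes were lower, beside 7.44% of all: Tet1 (259, 152 and 85.4 CPM) and Tet2 (101, 34.8 and 22.0 CPM), both enzymes that oxidise methylcytosine and both between.

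Of the 19 measured genes of the pluripotency list, 11 were lower in strong than in off cells, 8 differed by under 2-fold and 0 were higher, beside 7.44% lower and 10.9% higher among all measured genes. In intermediate cells 9 of the 11 lower genes lay between, 2 were still off and 0 were at the strong level, beside 75.6%, 2.23% and 22.1% of all lower genes. Over the list the median log2 difference from off cells was -0.63 in intermediate and -1.45 in strong cells, beside -0.01 and -0.14 over all measured genes. Zfp42 (Rex1), a marker of the naive state, had 1306, 1103, 547 and 306 CPM in off, bridge, intermediate and strong cells. Klf4 had 423, 186 and 143 CPM in off, intermediate and strong cells, and Utf1, a chromatin-bound pluripotency protein, 230.2, 81.7 and 60.9 CPM. Both lay near the 1.3-fold limit, in the same class under 9 and 11 of 17 settings.

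Sox2 and Tbx3 were the 2 genes of the list still at least 2-fold above the strong level. Sox2 (ENSMUSG00000074637), a core pluripotency factor, had 659 CPM in off, 564 in bridge, 291 (284 to 298) in intermediate and 141 (134 to 148) in strong cells, 2.06 times (1.95 to 2.18) the strong level. Tbx3, a T-box factor of naive cells, had 495, 548, 421 and 209 CPM, 2.01 times (1.92 to 2.10) the strong level. Intermediate cells were thus well below off cells in Sox2 but near them in Tbx3. Both ratios are close to the limit, and the class held under 12 and 10 of 17 settings.

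The remaining genes of the list that are named here differed by under 2-fold between strong and off cells. Nanog had 472 CPM in off, 520.4 in bridge, 407 (398 to 416) in intermediate and 273 in strong cells, against 202 in negative-library off cells. Pou5f1 (Oct4) had 333, 220.3 and 173 CPM in off, intermediate and strong cells. Dppa5a had 12443, 11029 and 7433 CPM. In summed CPM intermediate cells were nearer to off cells in Nanog and Dppa5a, and nearer to strong cells in Pou5f1. For Nanog the median cell, thinned to 10000 UMIs, had 4 UMIs in off and bridge, 2 in intermediate and 1 in strong cells, nearer to strong cells. Klf5 had 388, 224 and 245 CPM, so that intermediate cells were past the strong level, and Sall4 had 178, 288 and 264 CPM, above off cells in both.

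**Figure D3:**
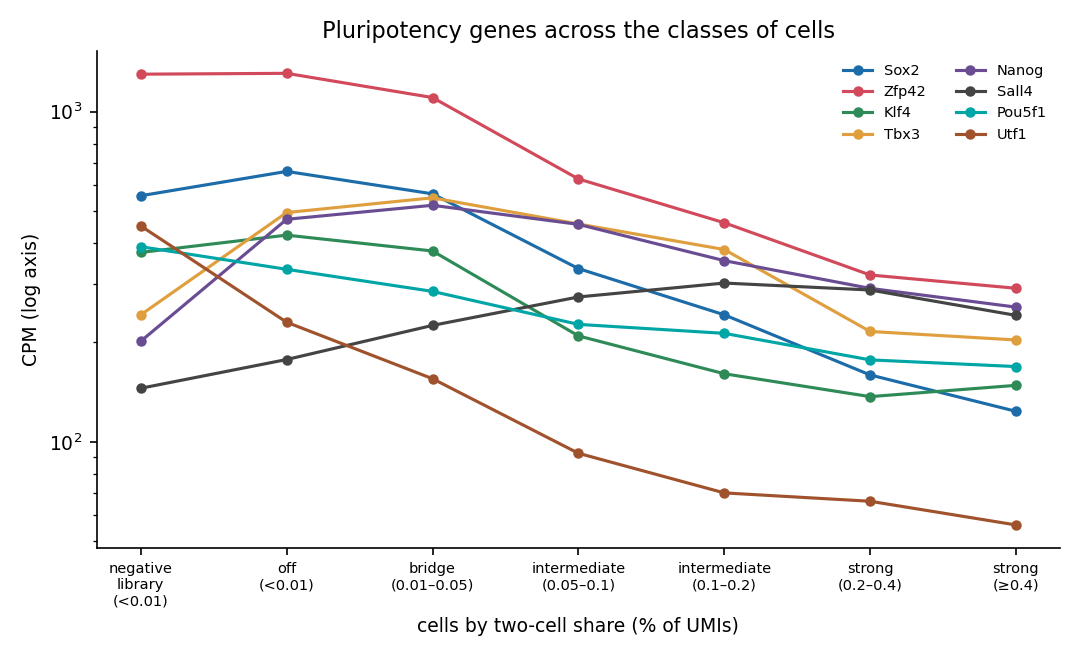
CPM on a log axis for 8 pluripotency genes across negative-library off cells and 6 classes of positive-library cells by two-cell share; each line is 1 gene. Zfp42, Sox2, Klf4 and Utf1 drop between bridge and intermediate cells, and the summed levels of Tbx3 and Nanog drop at higher two-cell shares. Sall4 is higher in intermediate cells (288 CPM) than in off cells (178 CPM).

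The lower genes already at the strong level included developmental regulators with low counts. Foxd3, a forkhead factor of embryonic stem cells, had 38.2 CPM in off, 27.7 in bridge, 7.38 (6.26 to 8.65) in intermediate and 6.45 (5.08 to 8.07) in strong cells. The connexin gene Gjb5 had 10.6, 2.41 and 1.78 CPM in off, intermediate and strong cells. G0s2, an inhibitor of lipolysis, had 22.7, 4.63 and 3.48 CPM, the long non-coding RNA Halr1 25.9, 7.48 and 5.77 CPM, and Cdk6 11.8, 3.04 and 2.12 CPM. Otx2 and Zic2, transcription factors of primed cells, had 11.4, 2.89 and 2.12 CPM and 10.4, 2.27 and 1.87 CPM. The class is read on CPM + 1, while the printed CPM of Gjb5, G0s2, Cdk6 and Otx2 lie more than 1.3-fold from the strong level. The class held for Cdk6 under 9, Otx2 under 10, G0s2 under 11, Zic2 under 12 and Foxd3 under 15 of 17 settings. Cdk6, Otx2 and G0s2 left it under other limits of the cell classes as well as under a smaller pseudocount.

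Further genes at the strong level came from the lists or were chosen after their values were seen. Gdf3, a TGF-beta family ligand chosen in that way, had 39.3, 14.2 and 11.7 CPM in off, intermediate and strong cells. From the lists, Tfap2c had 27.7, 8.68 and 6.87 CPM, Xbp1 35.3, 12 and 10.5 CPM and Bbc3 (Puma) 22.4, 10.6 and 10.6 CPM. All were within 1.3-fold of the strong level while off cells were at least 2-fold above it.

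Of the 14 lower genes still off, 8 with the largest gap were named. Mymx, which codes for a micropeptide of myoblast fusion, had 113 CPM in off, 93.7 in bridge, 47.0 (44.1 to 50.1) in intermediate and 18.7 (16.3 to 21.3) in strong cells. Cobl, an actin nucleator, had 64.9, 21.4 and 9.16 CPM in off, intermediate and strong cells, and Trim71, an RNA-binding regulator, had 174, 122 and 58.0 CPM. Msc (17.1, 5.26 and 1.78 CPM), Gsdme (11, 7.43 and 2.71 CPM), Gm37258 (22.6, 8.73 and 3.65 CPM), Gm11627 (14.1, 3.43 and 0.933 CPM) and 2700078F05Rik (10.5, 5.31 and 1.87 CPM) had few UMIs. The number of such genes depended on the settings, from 6 to 83.

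Some genes stood above both reference classes in intermediate cells, by at least 1.3-fold each. There were 24 such genes (0.284% of those measured), and 7 (0.0829%) stood below both. Pim1, a serine/threonine kinase, had 277 CPM in off, 408 in bridge, 491 (482 to 501) in intermediate and 276 (266 to 285) in strong cells. Klf9, a Krüppel-like factor, had 344, 447, 523 and 333 CPM, and Arl4d, a small GTPase, 27.0, 42.9, 61.2 and 37.1 CPM. Cidea, a lipid droplet protein, had 24.7, 34.2, 42.1 and 19.9 CPM. These 4 were above both classes in all 17 alternative settings.

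Dusp4, a phosphatase of MAP kinases, had 14.5, 24.4, 31.6 and 17.8 CPM and kept its place in 16 of 17 settings. Igfbp2, which binds insulin-like growth factors (943, 1281, 1423 and 993 CPM), did so in 16, and Gpx4, which reduces lipid peroxides (562, 727, 749.9 and 446 CPM), in 14. Krt8, a keratin of simple epithelia, had 23.2, 31.3 and 20.5 CPM in off, intermediate and strong cells and did so in 11. Its partner Krt18 had 30.2, 39.1 and 28.2 CPM, short of the limit against off cells. Bridge cells already lay between off and intermediate cells in Pim1, Klf9, Arl4d, Cidea, Dusp4, Igfbp2 and Gpx4.

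The 7 genes below both classes had modest counts. Atf3, a stress-responsive factor, had 8.01 CPM in off, 5.16 (4.23 to 6.24) in intermediate and 11.1 (9.29 to 13.2) in strong cells, and Pgrmc1, a heme-binding membrane protein, had 35.3, 23.9 and 35.1 CPM. Both kept their place in all 17 alternative settings. Egr1, an immediate early factor, had 13.0, 7.91 and 12.6 CPM and kept it in 16, BC028528 had 6.84, 4.39 and 12.9 CPM and kept it in 15, and Dusp16, a phosphatase of MAP kinases, had 10.6, 5.07 and 7.12 CPM and kept it in 13. Gm16196 (11.3, 8.01 and 14.8 CPM) kept it in 13 and Parvb (10.8, 8.01 and 12.6 CPM) in 10. In the immediate early list 4 of 10 measured genes were higher in strong than in off cells, beside 10.9% of all measured genes, among them Jun, still off with 17.7, 42.0 and 108 CPM.

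**Figure D4:**
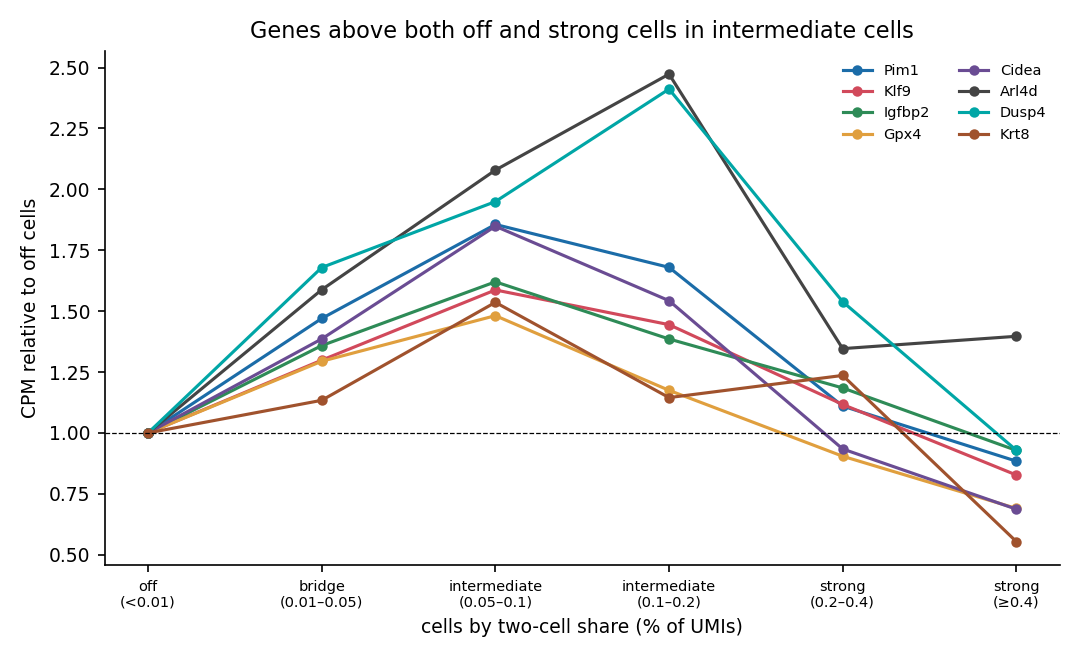
CPM relative to off cells (dashed line) for 8 genes across 6 classes of positive-library cells by two-cell share; each line is 1 gene. Pim1, Klf9, Igfbp2, Gpx4, Cidea and Krt8 are highest in intermediate cells with a share under 0.1%, Arl4d and Dusp4 in those above it, and all 8 are lower in strong cells with a share of at least 0.4%, where Arl4d stays above its off level.

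Doublets were not removed and free RNA was not estimated, and the part of either in these levels was not tested. UMI ratios between genes differed between the classes: there were 0.776 GFP UMIs per Gm21761 UMI in off cells (0.741 to 0.812), 0.822 in bridge cells, 0.274 (0.267 to 0.281) in intermediate cells and 0.0570 (0.0555 to 0.0585) in strong cells. Fbxo15 had 4.05, 3.64, 0.972 and 0.188 UMIs per Gm21761 UMI in the same order. Since Gm21761 moves with the rule genes, these ratios partly follow the limits of the classes.

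Cell cycle and metabolic lists were set beside the 10.9% higher and 7.44% lower among all measured genes. The 22 G2/M genes summed to 4237 CPM in off, 5285 in intermediate and 5327 in strong cells, and 2 of them were higher and at the strong level: Ccna2, or cyclin A2 (127, 241 and 307 CPM), and Aurka, a mitotic kinase (56.7, 92.1 and 118 CPM). The 22 S phase genes summed to 2546, 2116 and 1886 CPM, with 1 higher and 2 lower, so both lists had called shares near or under those of all genes. These shares do not count shifts under 2-fold. The median log2 difference from off cells was 0.24 in intermediate and 0.24 in strong cells for G2/M genes. For S phase genes it was -0.25 and -0.45, beside -0.01 and -0.14 over all measured genes. The 13 mitochondrially encoded genes summed to 18612, 21429.6 and 24498.5 CPM, and 0 of the 12 measured passed 2-fold. No gene of the nucleolar list (15) or the splicing list (16) passed it, and 1 of 15 glycolysis genes did, Hk2, which was lower.

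Among the stress genes 4 of 14 were higher in strong than in off cells and 2 lower. Hspa1a, an inducible chaperone, had 1.70 CPM in off, 17.6 in intermediate and 47.1 in strong cells, but 36 of the 715 intermediate cells (5%) held 82.2% of its UMIs. Of 15 measured p53 targets 2 were higher and 1 lower, of 5 primed genes 2 lower, and of 9 telomere genes outside the rule 1 lower, which was Tbx3. These shares stand beside the 10.9% and 7.44% of all genes and are not read further.

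Single intermediate cells were spread differently for each gene. After thinning to 10000 UMIs, the 2C list outside the rule had a median of 6 UMIs in off, 64 (quartiles 34 and 116) in intermediate and 310.5 in strong cells, and 702 of 715 intermediate cells (98.2%) lay strictly between the off and strong medians. Gm21761 had medians of 1, 6 and 73 UMIs. For it 21 intermediate cells (2.94%) reached the strong median and 135 (18.9%) were at or under the off median. By both measures nearly all intermediate cells lay short of the strong median, but the classes overlapped. The upper quartile of intermediate cells for the 2C list (116) was above the 10th percentile of strong cells (112.7), and for Gm21761 the 90th percentile of intermediate cells (42.6) was above the lower quartile of strong cells (31.25).

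Fbxo15 had medians of 3, 12 and 12 UMIs per 10000 in off, intermediate and strong cells, and 366 intermediate cells (51.2%) were at or above the strong median. GFP had medians of 0, 3 and 4, with 303 cells (42.4%) at or above the strong median and 108 (15.1%) without a UMI. The intermediate and strong cells overlapped almost fully in Fbxo15 and broadly in GFP.

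For Sox2 the summed level and the median cell gave different pictures. Its median was 6 UMIs in off cells and 1 in both intermediate and strong cells, and 388 intermediate cells (54.3%) were at or below the strong median. The upper quartile was 4 in intermediate and 2 in strong cells, the 90th percentile 8 and 3, and 117 intermediate cells (16.4%) were at or above the off median. The 2.06-fold summed gap between intermediate and strong cells thus lay in an upper part of the intermediate cells, while their medians were equal. Sum and median also differed for Nanog, as given above, and Zfp42 had medians of 12, 3 and 2.

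**Figure D5:**
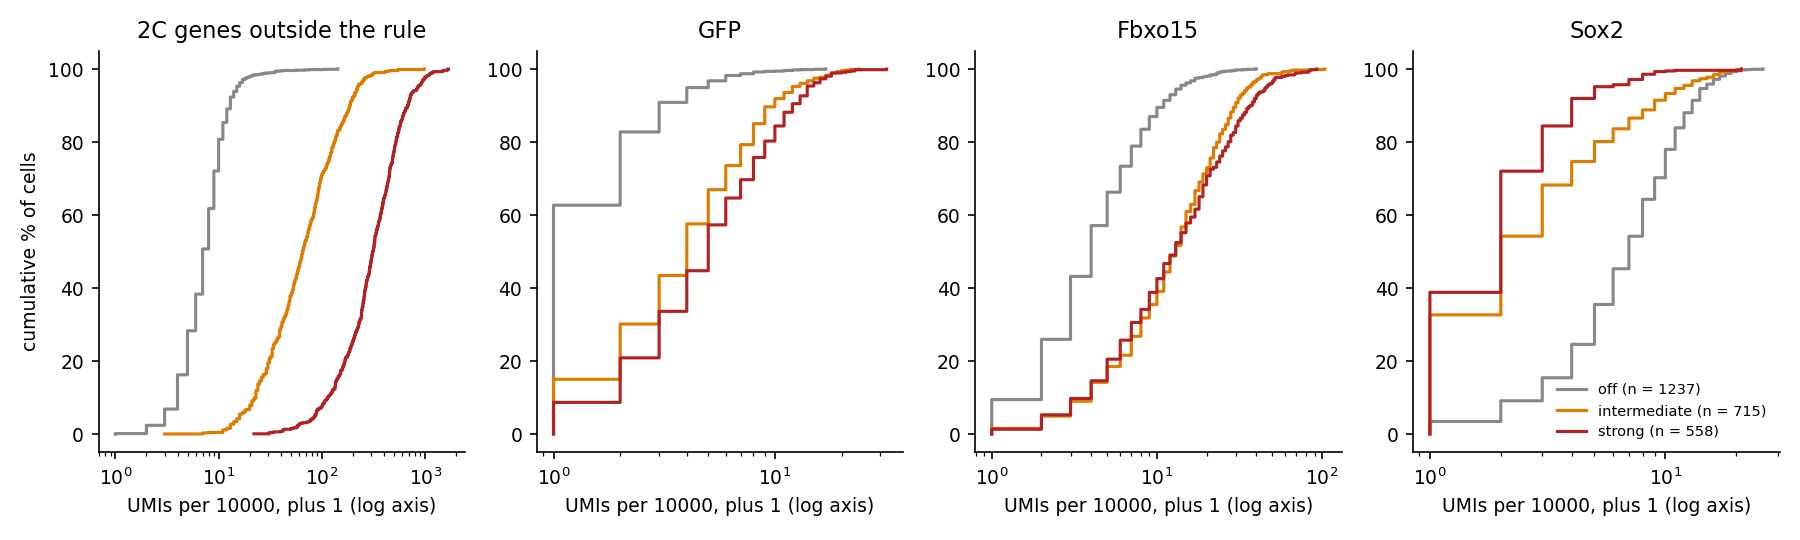
Cumulative percentage of cells on the y axis against UMIs per 10000, plus 1, on a log x axis for the 2C list outside the rule, GFP, Fbxo15 and Sox2; lines are the 1237 off, 715 intermediate and 558 strong cells. Intermediate cells lie between the others for the 2C list, on top of the strong cells for Fbxo15, and share the lower range of strong cells for Sox2 with a longer upper tail.

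The intermediate cells were also divided by GFP, which is not a rule gene. The 108 cells without a GFP UMI among 10000 and the 607 with one had two-cell shares of 0.102% and 0.108% of summed UMIs, with median shares per cell of 0.0909% and 0.102% and median UMIs of 27807 and 27687. The cells with GFP thus had the slightly higher share, with which still-off genes move, and its part in the differences was not tested. Of 8440 genes other than GFP, 25 (0.296%) were at least 2-fold higher in cells with GFP and 7 (0.0829%) at least 2-fold lower. Of the 25 genes 16, and of the 7 genes 2, belonged to the 320 still off the strong level, whose median log2 difference was 0.23, beside -0.07 over all genes. Gm21761 had 1455 CPM in cells with GFP and 1075 in cells without, Nelfa 873 and 590.2 CPM, and Zscan4d 187 and 212 CPM. Dppa3 went the other way, with 63.2 against 213 CPM, again resting on few cells.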

How the data were processed

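For each of 2 libraries the authors deposited a sparse matrix of raw counts, with 55415 features including GFP. The counts are read as UMIs, since cells carry barcodes. The submitters' processing notes name FastQC 0.11.2, Trim Galore 0.6.4, STAR 2.7.6a and mm10. Their roles, the annotation and the cell calling are not given in the sources used here, and the extraction text in the labels describes bulk kits. Of the feature IDs 52081 occur in a GRCm38 gene table and 3334 do not, so gene coordinates are given only for RefSeq promoters. 901 symbols repeat an earlier one.

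Counts were summed over each class of cells and scaled to CPM. Ratios use exact conditional intervals, sums exact Poisson and shares Clopper-Pearson intervals (95%). Log2 differences use CPM + 1. Thinning drew 10000 UMIs per cell without replacement. With 1 library per group and classes cut from a readout, no test was run. Cells below 10000 UMIs (200 in the positive library) were left out, and doublets were kept.

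Named genes are the rule genes, GFP, list members and the 8 most extreme genes of each class; others are said to be chosen after their values were seen, as were Gm21761, Gm21818, Igfbp2, Gpx4, Eif1ad6 and Gm5117. Some genes that this rule names are not reported here. The members and lists were chosen with earlier results of these data known. The steps were tested on simulated data for intermediate and strong against off cells. Of 200 changed genes among 55415, 98.5% were recovered, with 0 false calls among 7441. These rates describe the simulated data only, and recovery in the real cells was not tested. The tools were numpy 2.4.6 and scipy 1.17.1, run in Python 3.11.15 with pandas 2.3.3 and matplotlib 3.10.9. Alternatives changed class limits, depth, scaling, pseudocount, fold, tolerance and filter.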

Additional observations from a re-analysis of the deposited data

How the results depend on the processing

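No paired analysis was possible because only 1 library exists per group. No replicate could be left out either. Under the 17 alternatives 537 to 825 cells were members and 245 to 461 higher genes were still off (320). The pluripotency median ran from -0.77 to -0.55, so it stayed negative. The GFP level of intermediate cells stayed below that of strong cells. The counts of cells and genes have no direction, so a reversal could not be seen in them.

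The 184 higher and 139 lower genes at the strong level became 15 and 5 at 4-fold, 343 and 397 with a tolerance of 1.5-fold, 321 and 322 with a 1 CPM filter, and 105 and 80 with off cells up to 0.05%; the lower genes were 91 with strong cells from 0.4%. At 4-fold 94.1% of calls were higher genes, against 59.5%. The 14 lower genes still off became 6 with a lower edge of 0.07% or median-of-ratios scaling, 25 with an upper edge of 0.15% or a 1 CPM filter, 83 with strong cells from 0.4%, 9 without the endoderm limit, 22 as a mean over cells, 24 with a pseudocount of 0.1 and 8 at 4-fold. The cause was not tested where only the class of cells changed.

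The GFP ratio of 0.774 was 0.807 with a lower edge of 0.07%, 0.746 with an upper edge of 0.15% and with strong cells from 0.4%, 0.835 from 20000 UMIs, 0.741 on thinned calls and 0.722 under median-of-ratios scaling. The 2C list ratio of 0.238 was 0.276, 0.198, 0.180, 0.262, 0.231 and 0.222 under the same settings, 0.244 without the endoderm limit, 0.239 without very large cells, 0.235 without cells above 5% mitochondrial UMIs and 0.236 over CPM outside rule, ribosomal and mitochondrial genes. Genes above both classes numbered 13 to 58, and 132 with a 1 CPM filter, of which 12 to 24 were among the 24, and genes below both (7) numbered 5 to 15, and 83 with that filter. When classes were called on a random 0.5 of each cell's UMIs and levels read from the rest, 320 higher genes were still off, 288 of them the same, while 120 of the 184 higher and 74 of the 139 lower genes at the strong level and 8 of the 14 lower genes still off kept their class. Depth limits genes under 10 CPM, where a class rests on few UMIs.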

Other observations

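In the negative library 3 cells met the rule for intermediate cells and 0 that for strong cells, with 7 in the bridge range among cells with at least 10000 UMIs. Their two-cell shares were 0.117%, 0.106% and 0.0512%, at 28158, 34870 and 25374 UMIs, and each had 0 GFP UMIs. In the positive library 84.9% of intermediate cells had a GFP UMI even after thinning to 10000.

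Within the intermediate cells without a GFP UMI a few further genes were at least 2-fold apart from the others, all picked out after their values were seen. A530040E14Rik had 15.9 CPM (14.1 to 17.9) in cells with GFP and 3.18 CPM (1.52 to 5.85) in cells without, Bex6 36.3 and 15.6 CPM, and Amd2 22.1 and 9.86 CPM. Higher in cells without GFP were Gm5117 (45.5 against 20.5 CPM), Nin (33.4 against 13.1 CPM) and Xlr3c (12.7 against 4.83 CPM). For A530040E14Rik 36 of 715 intermediate cells held 54.1% of the UMIs.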
